A study of Mus musculus with 8 samples.

Results

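The 7 genes described here build the gap junctions, tight junctions and ion pathways of the inner ear outside the marginal cells of the stria vascularis. They are the connexin genes Gjb2 and Gjb6, the claudin genes Cldn11 and Cldn14, the potassium pathway genes Slc12a7 and Kcnj16, and the anion exchanger gene Slc26a4. They were chosen by symbol from 47517 symbols, and all 7 were found and passed the filter on low counts that kept 21392 symbols. RNA of the whole inner ear was sequenced at postnatal day 14 in 4 libraries of mutant mice and 4 libraries of wild-type mice. The mutant mice were heterozygous for a frameshift in the reading frame of TRα1, a thyroid hormone receptor encoded by Thra, and the wild-type mice were their littermates. Both groups were untreated and of the same age. The labels do not give the strain or the sex, nor whether a library came from 1 animal or several. The tissue is labelled as inner ear while the series title speaks of the cochlea.

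Hair cells are bathed in endolymph, a fluid rich in potassium, and potassium that passes through them is taken up by supporting cells and fibrocytes and carried back to the stria vascularis. Connexins form the gap junction channels of that route, cotransporters and inward rectifier channels move potassium across cell membranes, and claudins seal the compartments. Pendrin, the product of Slc26a4, exchanges chloride for bicarbonate and keeps the endolymph from becoming acid. Loss of several of these genes causes deafness in humans and mice. The inner ear completes this system around the onset of hearing, a period in which its maturation depends on thyroid hormone.

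The promoters of Gjb2, Gjb6 and Slc26a4 are shown because Gjb2 and Gjb6 are neighbouring genes compared as a pair below, and Slc26a4 had the smallest p among the 7 genes. Each sequence is the 250 bases before the RefSeq start site in build GRCm38.p6, read along the gene's own strand, which is the minus strand for all 3. For Gjb2 and Gjb6, 1 transcript each of the GENCODE M21 annotation held the bases after that site. For Slc26a4 it was 0, and the GENCODE gene, which ends at chr12:31559969, does not reach the RefSeq start site. Capitals mark AGGTCA or its reverse complement, the core motif that nuclear receptors, the thyroid hormone receptors among them, are known to bind.
Gjb2, chr14:57104703-57104952: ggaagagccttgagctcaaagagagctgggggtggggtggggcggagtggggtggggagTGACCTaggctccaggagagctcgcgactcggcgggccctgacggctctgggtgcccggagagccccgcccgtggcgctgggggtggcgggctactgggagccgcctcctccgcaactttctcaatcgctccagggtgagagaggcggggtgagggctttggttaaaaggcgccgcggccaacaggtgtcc
Gjb6, chr14:57133612-57133861: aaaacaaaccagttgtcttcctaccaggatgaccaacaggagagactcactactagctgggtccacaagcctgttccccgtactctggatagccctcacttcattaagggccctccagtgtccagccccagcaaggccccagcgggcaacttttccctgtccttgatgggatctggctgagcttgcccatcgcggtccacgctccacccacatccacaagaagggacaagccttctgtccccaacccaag
Slc26a4, chr12:31559985-31560234: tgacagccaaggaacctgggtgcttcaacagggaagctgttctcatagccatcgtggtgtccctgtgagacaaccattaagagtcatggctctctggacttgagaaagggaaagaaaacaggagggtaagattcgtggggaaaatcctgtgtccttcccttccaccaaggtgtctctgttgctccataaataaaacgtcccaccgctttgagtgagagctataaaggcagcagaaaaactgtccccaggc
The window of Gjb2 held 1 match, whose first base lay at -191 from the start site, and those of Gjb6 and Slc26a4 held 0. RefSeq gives 13 start sites for the 7 genes, and 6 of the 13 windows, from 4 genes, held AGGTCA on either strand. The share over all 32851 windows of the same length was 14.0%. Windows of the same gene are not independent of each other. Those of Cldn14 at chr16:93929568-93929817 and chr16:93929818-93930067 adjoin, and those of Slc12a7 at chr13:73763410-73763659 and chr13:73763447-73763696 overlap. The shares were therefore not compared by a test. A direct repeat of AGGTCA with any 4 bases between the copies was in 0 of the 13 windows and in 0.0152% of all windows. A match is a description of letters and not a binding site.

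Some libraries stood apart. Total counts were 19662433 to 23064578 in mutant libraries and 18930841 to 22028397 in wild-type libraries, so that 3 counts corresponded to at most 0.159 CPM (counts scaled by normalized library size). Thra itself stood at 113 to 137 CPM in mutant libraries and 98.4 to 114 CPM in wild-type libraries (edgeR adjusted p = 0.924), and counts per gene do not show whether a transcript carries the frameshift. Mutant replicate 4 held 38177 counts of Ttr, a marker of choroid plexus, against 123 to 707 in the other libraries. Wild-type replicate 2 had the largest share of haemoglobin counts, 4.88%, against 0.781% to 2.49% in the others. The 8 markers of airway and middle ear mucosa summed to 6.37 to 14.1 CPM in mutant libraries and 192 to 631 CPM in wild-type libraries. Most of the wild-type sum was Bpifa1, at 0.669 ± 0.438 CPM in mutant and 299 ± 166 CPM in wild-type libraries (SD). Trp63 and Krt13, named after their values were seen, did not share that drop. Trp63 stood at 6.57 ± 2.42 CPM in mutant and 7.56 ± 1.38 CPM in wild-type libraries, and Krt13 had at most 5 counts in any library. Titles hold 1 number for replicates 1 and 4 of each genotype and 2 numbers for replicates 2 and 3, which the labels do not explain. Xist, expressed in females, had 3622 to 10682 counts in all 8 libraries, and the Y-linked gene Eif2s3y had 530 counts in mutant replicate 3, 545 and 520 in wild-type replicates 2 and 3, and at most 2 in the others. Mutant replicate 3 and wild-type replicates 2 and 3, all titled with 2 numbers, thus held RNA of both sexes, while the other 5 libraries, mutant replicate 2 among them, held almost no Y-linked RNA. Markers of hair cells (142 to 203 CPM summed over 6 genes), supporting cells (235 to 337 CPM over 6) and spiral ligament fibrocytes (4064 to 6393 CPM over 5) were present in every library. In bulk tissue, fewer cells of a type and less RNA per cell cannot be told apart.

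Per length, the connexin genes led the group. On the scale of TPM (transcript abundance, in counts per base of merged exons, scaled to the same sum in each library), Gjb2 averaged 367 ± 66.0 TPM in mutant and 362 ± 96.2 TPM in wild-type libraries (SD, n = 4 each). Gjb6 followed at 207 ± 15.6 TPM in mutant and 209 ± 29.3 TPM in wild-type libraries, and Cldn11 at 175 ± 27.5 TPM in mutant and 145 ± 19.4 TPM in wild-type libraries. Kcnj16 stood at 34.9 ± 7.89 TPM in mutant and 34.1 ± 6.33 TPM in wild-type libraries, and Slc26a4 at 28.9 ± 5.66 TPM in mutant and 36.5 ± 3.32 TPM in wild-type libraries. Slc12a7 had a mean level of 16.4 ± 1.62 TPM in mutant and 16.7 ± 0.959 TPM in wild-type libraries, and Cldn14 of 5.59 ± 0.921 TPM in mutant and 5.41 ± 0.863 TPM in wild-type libraries. This order of neighbours held in all 8 libraries except for Kcnj16 and Slc26a4, of which Kcnj16 was the higher in 3 mutant libraries and 1 wild-type library. Over 20534 tested genes with a known length, Gjb2 ranked 237th, Gjb6 447th, Cldn11 585th and Cldn14 12048th. With the length of the longest annotated transcript in place of merged exons, chosen after seeing the data, Slc12a7 stood at 26.3 ± 2.47 TPM in mutant and 26.9 ± 1.51 TPM in wild-type libraries, since its merged exons (12669 bases) are longer than any 1 transcript (6987 bases). Slc26a4 then exceeded Slc12a7 in 2 of 4 mutant and 4 of 4 wild-type libraries, so the order of these 2 genes rests on the length used. By that length Gjb2 exceeded Gjb6 in 3 of 4 mutant and 4 of 4 wild-type libraries, and Kcnj16 exceeded Slc26a4 in 3 of 4 mutant and 2 of 4 wild-type libraries.

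Within their families, Gjb2, Gjb6, Cldn11 and Slc26a4 were the leading genes. Gjb2 and Gjb6 together made up 83.9 ± 0.961% of the TPM of 20 connexin genes in mutant libraries and 85.9 ± 1.66% in wild-type libraries (SD, n = 4 each), with overlap between genotypes. The next connexins were Gjc3, a connexin of myelinating glia, at 43.3 ± 5.34 TPM in mutant and 36.5 ± 13.1 TPM in wild-type libraries, and Gja1, the most widespread connexin in the body, at 22.6 ± 3.52 TPM in mutant and 20.0 ± 4.86 TPM in wild-type libraries. In CPM, which does not divide by length, Gja1 averaged 131 in mutant and 120 in wild-type libraries. Gjc3 averaged 107 and 92.8 CPM, so the order of Gjc3 and Gja1 depends on length. Cldn11 alone made up 50.7 ± 3.23% of the TPM of 23 claudin genes in mutant libraries and 45.0 ± 2.58% in wild-type libraries. The ranges of that share, 47.7% to 53.7% in mutant and 41.7% to 47.6% in wild-type libraries, did not overlap, by a margin far smaller than the spread within either genotype, and this share was not tested. Next came Cldn9, a claudin of the sensory epithelium, at 36.9 ± 6.21 TPM in mutant and 38.0 ± 4.99 TPM in wild-type libraries, and Cldn19, a claudin of Schwann cells, at 37.7 ± 6.49 TPM in mutant and 32.8 ± 9.61 TPM in wild-type libraries. Cldn14 ranked 9th of the 23. Slc26a4 ranked first of 11 Slc26 genes, ahead of Slc26a7 at 6.22 ± 0.470 TPM in mutant and 5.01 ± 1.64 TPM in wild-type libraries.

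**Figure D1:**
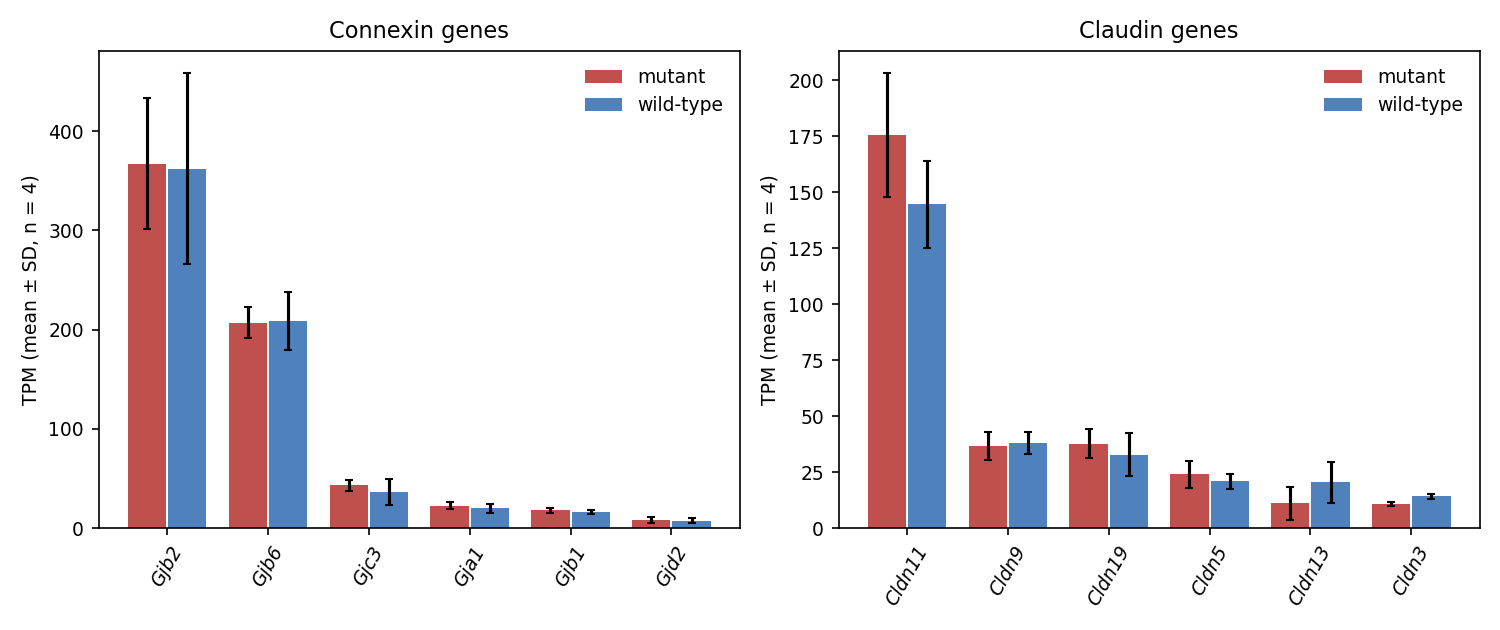
Levels in TPM of merged exons of the 6 connexin genes (left) and claudin genes (right) highest on that scale, as the mean with SD of 4 mutant libraries (red) and 4 wild-type libraries (blue). Gjb2 and Gjb6 stand far above the other connexins and Cldn11 above the other claudins in both genotypes.

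None of the 7 genes was called between genotypes. In the edgeR quasi-likelihood test over all 21392 genes, 9 genes were called at an adjusted p under 0.05, which is 0.0421% of those tested (0.00467% higher and 0.0374% lower in mutant libraries), and 0 of the 7 were among them (adjusted p = 0.924 to 0.99999). At an unadjusted p under 0.05, 1 of the 7 passed, Slc26a4, against 5.3% of all genes tested, and 3.09% in its direction, lower in mutant libraries. DESeq2 called 0 of the 7 as well, with 0.318% of all genes called. An edgeR fit that blocked on neighbouring title numbers, which assumes that they pair libraries, called 0.136% of all genes and 0 of the 7. Log2 fold changes (mutant over wild-type) were below 0 for 6 genes and above 0 for Cldn11, with a median of -0.025 against -0.0061 over all genes tested, of which 11051 were below 0. The CPM ranges of the genotypes overlapped for all 7, whereas they did not for 2.69% of all genes. Standard errors of the 7 log2 fold changes lay between 0.088 and 0.20, against a median of 0.16 over all genes.

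**Figure D2:**
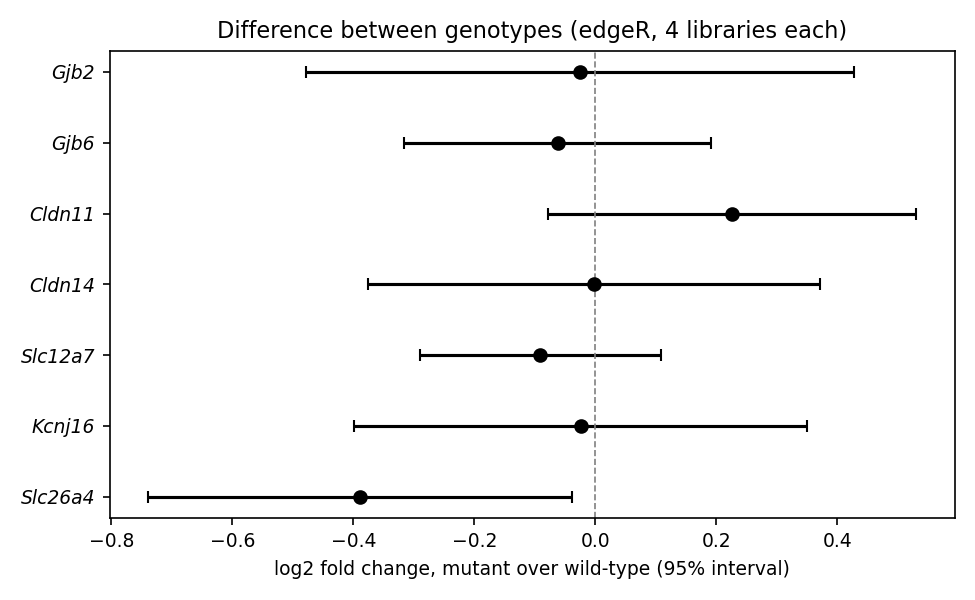
Log2 fold change of each of the 7 genes, mutant over wild-type, from edgeR on 4 libraries per genotype, with the unadjusted 95% interval. The interval of Slc26a4 lies below 0, between -0.74 and -0.038, and those of the other 6 genes include 0.

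Gjb2 encodes connexin 26 and Gjb6 connexin 30, which join in the same channels between supporting cells and between fibrocytes of the lateral wall. Both lie on the minus strand of chromosome 14 (GENCODE M21, GRCm38), Gjb2 at chr14:57098600-57104702 and Gjb6 at chr14:57123303-57133611, 18.6 kb apart and with no overlapping gene. Gjb2 stood at 576, 383, 474 and 572 CPM in mutant replicates 1 to 4, against 627, 346, 539 and 529 CPM in wild-type replicates 1 to 4. Replicate 2 was the lowest library of each genotype, and the highest library over both, wild-type replicate 1, was 1.81 times the lowest. The mean coefficient of variation within a genotype was 20.7%, against a median of 12.3% for the 324 genes whose mean level lay within a factor of 2. The difference was -0.025 on the log2 scale (SE 0.20, n = 4 and 4, edgeR adjusted p = 0.99999), and its 95% interval ran from 0.718 to 1.34 times the wild-type level. Its sign turned when any of 4 single libraries was left out (lowest -0.17, highest 0.10), so no direction can be given.

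Gjb6 varied less. It stood at 301, 341, 271 and 348 CPM in mutant replicates 1 to 4, against 347, 289, 357 and 323 CPM in wild-type replicates 1 to 4. High and low libraries occurred in both genotypes, and the coefficient of variation was 10.3%. The log2 fold change was -0.062 (SE 0.11, n = 4 and 4, edgeR adjusted p = 0.99999), with a 95% interval from 0.803 to 1.14 times the wild-type level. Without mutant replicate 3 it was 0.0038.

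The ratio of Gjb2 to Gjb6 counts within a library does not depend on how libraries are scaled. It was 1.91, 1.12, 1.75 and 1.65 in mutant replicates 1 to 4, against 1.81, 1.20, 1.51 and 1.64 in wild-type replicates 1 to 4. Gjb2 exceeded Gjb6 in each library, least in replicate 2 of each genotype. The mean log2 ratio was 0.66 ± 0.34 in mutant and 0.60 ± 0.25 in wild-type libraries (SD, n = 4 each, two-sided exact permutation p = 0.743, also when adjusted over 3 ratios). In replicate 2 the markers of red blood cells summed to 18902 CPM in the mutant and 49442 CPM in the wild-type library, the highest of their genotypes. Mutant replicate 1, with the highest Gjb2 of the mutant libraries, had a nearly equal sum of 17296 CPM. The part of blood in the Gjb2 values was not tested.

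The other connexins are background for this pair. Of 18 other connexin genes, 8 were tested and 0 were called, with 7 log2 fold changes above 0, 1 below 0 and a median of 0.17. Gjc1, a vascular connexin, stood at 11.9 ± 2.28 CPM in mutant and 8.87 ± 3.17 CPM in wild-type libraries. Gja4, another vascular connexin, had a level of 5.34 ± 2.35 CPM in mutant and 3.51 ± 1.49 CPM in wild-type libraries.

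**Figure D3:**
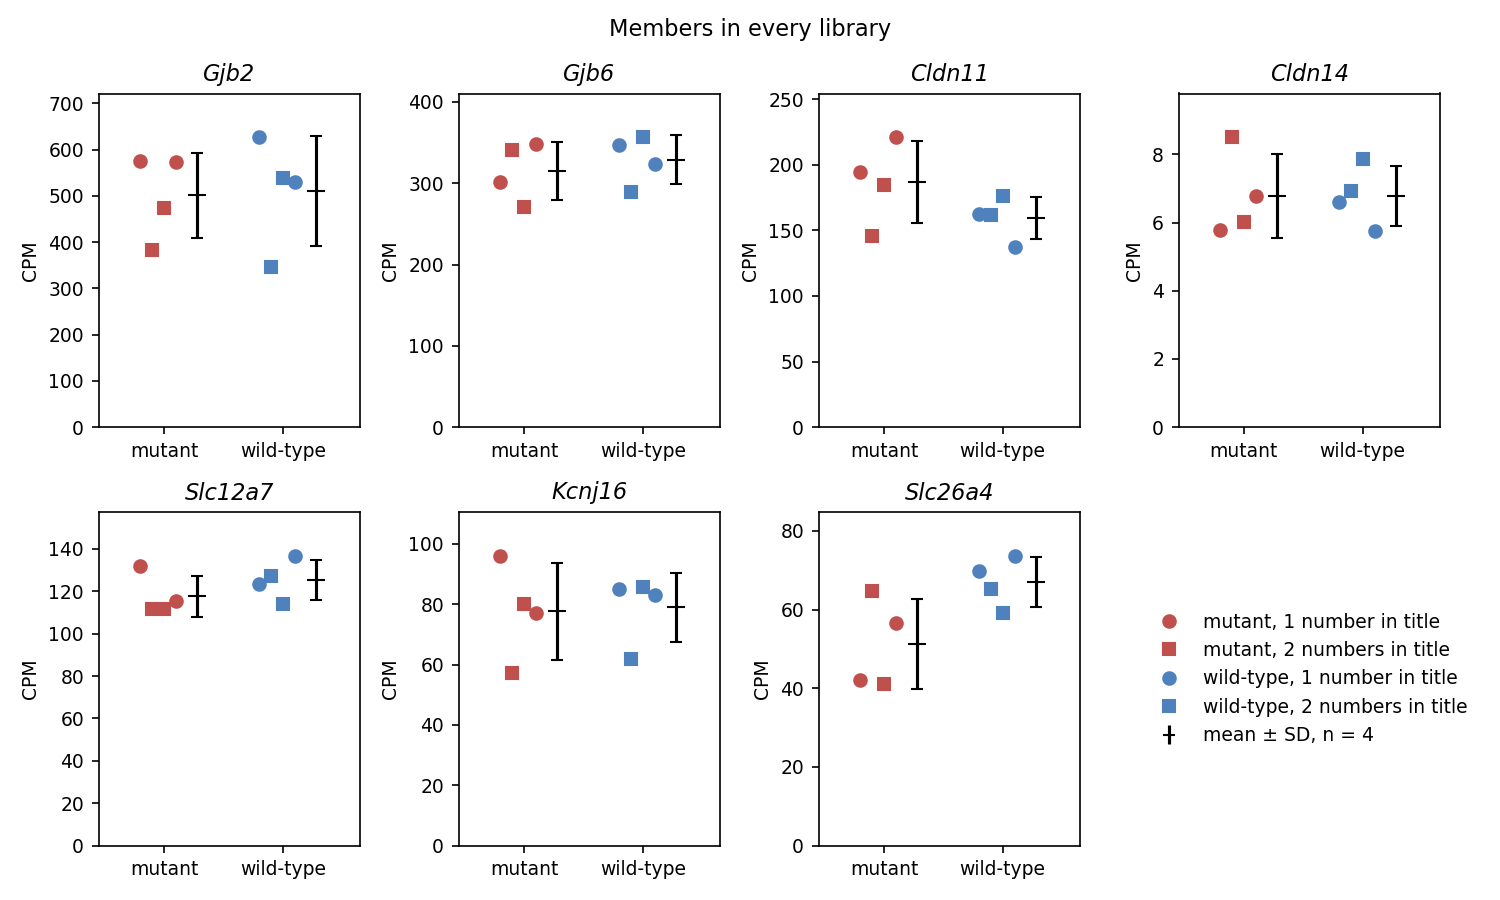
CPM of each of the 7 genes in every library, mutant (red) left of wild-type (blue), with circles for titles of 1 number and squares for titles of 2, and the mean ± SD of 4 libraries in black. The genotypes overlap in every panel, and 3 of 4 mutant libraries lie below all wild-type libraries for Slc26a4.

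Cldn11 forms the tight junctions of the strial basal cells, which hold the electrical potential of the stria, and also those between the layers of central myelin. The gene (chr3:31149920-31164324, plus strand, GRCm38) overlaps no other gene. It stood at 194, 146, 185 and 221 CPM in mutant replicates 1 to 4, against 163, 162, 176 and 137 CPM in wild-type replicates 1 to 4. Mutant replicates 1, 3 and 4 lay above all wild-type libraries, and mutant replicate 2 lay among them. The means were 186 ± 31.2 CPM in mutant and 159 ± 16.3 CPM in wild-type libraries (SD, n = 4 each), and the difference of 0.23 on the log2 scale (SE 0.13) had an adjusted p of 0.960 in edgeR and was not called. Its 95% interval ran from 0.947 to 1.44 times the wild-type level. In replicates 1 and 4, titled with 1 number, the log2 difference was 0.47, and in replicates 2 and 3 it was -0.042 (2 libraries per genotype each), so the difference did not hold within both title forms. Without mutant replicate 4, the library rich in Ttr, it was 0.13, and without mutant replicate 2 it was 0.33.

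Oligodendrocyte markers were also above wild-type on average. All 8 oligodendrocyte markers had log2 fold changes above 0 (median 0.37, 0 called), with sums of 3545 to 4755 CPM in mutant and 1950 to 4440 CPM in wild-type libraries, and none of the 8 was at 0 in either genotype. The order of libraries by that sum was not their order by Cldn11. Wild-type replicate 4 had the lowest of both, but mutant replicate 2 had a sum of 4650 CPM with the lowest mutant Cldn11, and mutant replicate 1 had the lowest mutant sum, 3545 CPM, with 194 CPM of Cldn11. Markers of Schwann cells, whose myelin is peripheral, had 3 of 6 log2 fold changes above 0 and a median of 0.062. Markers of meningeal cells had 1 of 5 above 0 and a median of -0.20 (0 called). The part of oligodendrocyte or meningeal RNA in the Cldn11 values was not tested.

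Cldn14 seals the apical junctions of hair cells and supporting cells in the organ of Corti. The gene (chr16:93919031-94008837, minus strand, GRCm38) holds the sense intronic gene Gm49618 in an intron, with no shared exon. It stood at 5.79, 8.51, 6.01 and 6.78 CPM in mutant replicates 1 to 4, against 6.59, 6.93, 7.85 and 5.75 CPM in wild-type replicates 1 to 4. These values rest on 124 to 185 counts per library. The highest library was mutant replicate 2 and the others of both genotypes were interspersed. The log2 fold change was -0.0020 (SE 0.16, n = 4 and 4, edgeR adjusted p = 0.99999), with a 95% interval from 0.771 to 1.29 times the wild-type level, and its sign varied between alternatives. The log2 difference was 0.025 in replicates 1 and 4 and -0.045 in replicates 2 and 3. Hair cell markers, in cells that carry Cldn14, had 6 of 6 log2 fold changes below 0 (median -0.12, 0 called), and supporting cell markers had 4 of 6 above 0 (median 0.11, 0 called).

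Of 21 other claudin genes in the files, 17 were tested and 0 were called, with 7 log2 fold changes above 0 and 10 below 0 (median -0.15). The 3 with the smallest p did not share a direction. Cldn1, a claudin of epidermis and perineurium, had 10.9, 8.78, 12.0 and 15.8 CPM in mutant replicates 1 to 4, against 6.73, 7.30, 7.28 and 5.98 CPM in wild-type replicates 1 to 4. All mutant libraries lay above all wild-type libraries, but the log2 fold change of 0.80 (SE 0.18, n = 4 and 4) did not pass (edgeR adjusted p = 0.591). Cldn3, an epithelial claudin, had 8.21, 8.05, 7.85 and 7.30 CPM in mutant replicates 1 to 4, against 10.3, 10.3, 11.2 and 10.4 CPM in wild-type replicates 1 to 4. All mutant libraries lay below all wild-type libraries, and the log2 fold change of -0.43 (SE 0.10, n = 4 and 4) did not pass either (edgeR adjusted p = 0.626). Cldn1 and Cldn3 were named for their small p, and 2.69% of all genes tested had ranges that did not overlap. Cldn7, also epithelial, ranged from 3.22 to 4.83 CPM in mutant and 4.73 to 6.03 CPM in wild-type libraries (edgeR adjusted p = 0.924). The epithelial claudins lie beside the mucosal markers given above, and the part of mucosa in them was not tested. Of the 7 mucosal markers tested, 4 were called lower (Bpifa1, Krt4, Krt5 and Krt14). Over all genes tested the share called lower was 0.0374%, or 8 genes, and these 4 are among the 8. The markers were listed with earlier results of these data known, so the 2 shares cannot be compared. These 4 genes held 0 to 26 counts in mutant libraries and entered the test through their wild-type counts alone, so only a lower call was possible. Among 12 tight junction partners 0 were called. Ildr2, an angulin of tricellular contacts, had the smallest p there, at 67.0 ± 9.96 CPM in mutant and 46.1 ± 11.1 CPM in wild-type libraries (edgeR adjusted p = 0.907). Of the junction's scaffold proteins, Tjp3 differed by -0.28 (SE 0.12) and Tjp1 by 0.19 (SE 0.11) on the log2 scale.

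Slc12a7 encodes the potassium chloride cotransporter KCC4, which takes up potassium in the supporting cells of hair cells. The gene (chr13:73733094-73816754, plus strand, GRCm38) overlaps no other gene. It was the least variable of the 7, at 132, 112, 112 and 116 CPM in mutant replicates 1 to 4, against 123, 127, 114 and 137 CPM in wild-type replicates 1 to 4. Mutant replicates 2 and 3 lay just below all wild-type libraries and replicates 1 and 4 among them. The means were 118 ± 9.69 CPM in mutant and 125 ± 9.51 CPM in wild-type libraries (SD, n = 4 each), with a log2 fold change of -0.091 (SE 0.088, edgeR adjusted p = 0.99999). The 95% interval, from 0.818 to 1.08 times the wild-type level, was the narrowest of the 7.

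Kcnj16 encodes Kir5.1, a potassium channel subunit of lateral wall fibrocytes. Kir5.1 can join with Kir4.1, the product of Kcnj10, but bulk counts do not show whether the same cells hold both. The gene (chr11:110968033-111027968, plus strand, GRCm38) overlaps no other gene. It stood at 96.1, 57.1, 80.2 and 77.1 CPM in mutant replicates 1 to 4, against 85.1, 61.9, 85.8 and 83.0 CPM in wild-type replicates 1 to 4. As with Gjb2, replicate 2 was the lowest library of each genotype. The log2 fold change was -0.024 (SE 0.17, n = 4 and 4, edgeR adjusted p = 0.99999), with a 95% interval from 0.759 to 1.27 times the wild-type level, and its sign turned when any of 4 single libraries was left out (lowest -0.14, highest 0.098). In replicates 1 and 4 the log2 difference was 0.034, and in replicates 2 and 3 it was -0.11. Kcnj10 stood at 152, 112, 138 and 189 CPM in mutant replicates 1 to 4, against 182, 141, 149 and 162 CPM in wild-type replicates 1 to 4, with a log2 fold change of -0.11 (SE 0.16). The count ratio of Kcnj16 to Kcnj10 was 0.634, 0.511, 0.583 and 0.407 in mutant replicates 1 to 4, against 0.468, 0.438, 0.574 and 0.512 in wild-type replicates 1 to 4. Mutant replicate 4 had the lowest ratio and mutant replicate 1 the highest (log2 difference 0.088, two-sided exact permutation p = 0.600, adjusted over 3 ratios 0.743, n = 4 and 4). None of the 15 other potassium uptake and recycling genes was called, with 5 log2 fold changes above 0 and 10 below 0 (median -0.090). The smallest p was that of Atp1b2, a sodium pump subunit of the stria, at 345 ± 58.3 CPM in mutant and 420 ± 30.2 CPM in wild-type libraries (edgeR adjusted p = 0.924). Strial marginal cell markers, given with Slc26a4, were also below 0, and their part in Atp1b2 was not tested. Kcnj13, an inward rectifier also of choroid plexus, had a log2 fold change of 0.48 (SE 0.27), and of 0.19 (SE 0.21) without mutant replicate 4, the library rich in Ttr. Kcnj15, another inward rectifier, had one of -0.42 (SE 0.26).

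**Figure D4:**
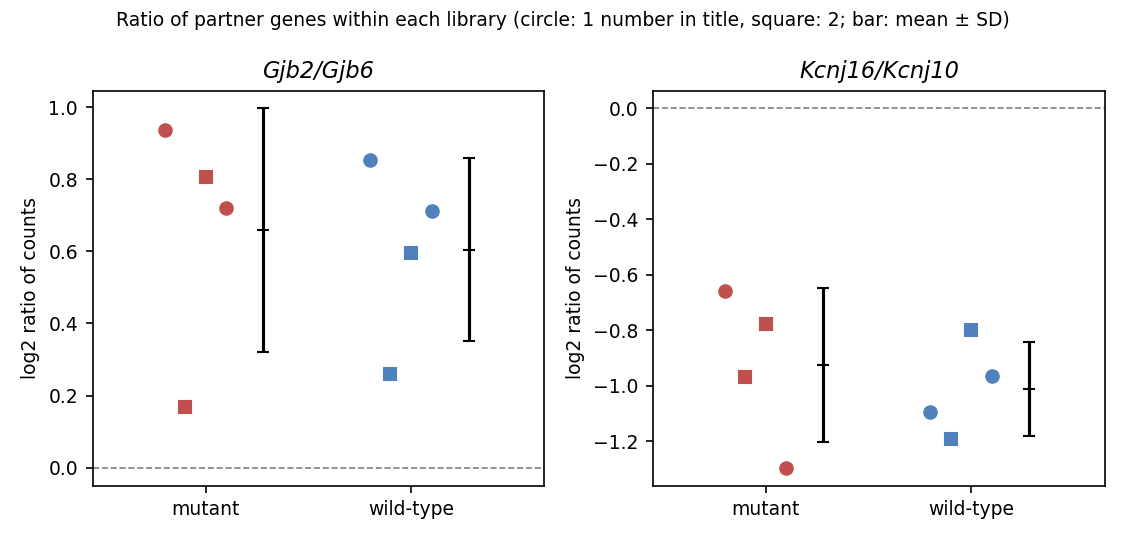
Log2 ratio of the counts of 2 genes in each library, for Gjb2 over Gjb6 (left) and Kcnj16 over Kcnj10 (right). Mutant libraries (red) stand left of wild-type (blue), with the mean ± SD of 4 libraries. Each pair keeps its order in every library, Gjb2 above Gjb6 and Kcnj16 below Kcnj10, and the genotypes overlap.

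Slc26a4 encodes pendrin, which is found in the endolymphatic sac, in the outer sulcus and root cells and in the spindle cells at the edges of the stria. The gene (chr12:31519827-31559969, minus strand, GRCm38) overlaps no other gene. It stood at 42.2, 64.8, 41.2 and 56.5 CPM in mutant replicates 1 to 4, against 69.9, 65.2, 59.2 and 73.7 CPM in wild-type replicates 1 to 4. Mutant replicates 1, 3 and 4 lay below all wild-type libraries and mutant replicate 2 lay among them. The means were 51.2 ± 11.5 CPM in mutant and 67.0 ± 6.26 CPM in wild-type libraries (SD, n = 4 each), which is -0.39 on the log2 scale (SE 0.15, edgeR unadjusted p = 0.0334, adjusted p = 0.924). The value did not pass the adjusted threshold, and 1134 of the genes tested had an unadjusted p under 0.05. Its unadjusted 95% interval ran from 0.599 to 0.974 times the wild-type level. The log2 difference was -0.55 in replicates 1 and 4 and -0.27 in replicates 2 and 3 (2 libraries per genotype each). With each library left out in turn it lay between -0.52 and -0.30, and it was -0.52 without mutant replicate 2.

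Genes of the cells that move acid and base in the endolymphatic sac, which also carry pendrin, ranged widely in level. Foxi1, the transcription factor that these cells require, had 0 counts in each mutant library, against 2, 7, 3 and 2 counts in wild-type replicates 1 to 4. The proton pump subunit gene Atp6v1b1, chosen after its values were seen, had 4, 0, 0 and 4 counts in mutant replicates 1 to 4, against 6, 5, 2 and 7 counts in wild-type replicates 1 to 4. At this depth no fold can be given for either. Slc4a9, Rhcg and Atp6v1g3, also not tested, were added after their values were seen. In mutant replicates 1 to 4 Slc4a9 had 7, 8, 3 and 3 counts, against 4, 8, 3 and 6 in wild-type replicates 1 to 4. Rhcg had 3, 8, 0 and 0 in the mutant against 4, 0, 0 and 5 in the wild-type libraries. Atp6v1g3 had 12, 5, 6 and 7 against 12, 8, 5 and 21, so the untested genes did not all lie lower in mutant libraries. Of 9 genes of the list 4 were tested and 0 were called. Dmrt2, a transcription factor singled out after its values were seen, held 0, 2, 0 and 0 counts in mutant replicates 1 to 4, against 15, 29, 11 and 25 counts in wild-type replicates 1 to 4, and did not pass (edgeR adjusted p = 0.165). It entered the test through its wild-type counts alone, so its direction is not read with the others. The 3 others tested were well above the floor in every library. The carbonic anhydrase gene Car12 stood at 43.8 to 54.6 CPM in mutant and 47.2 to 61.1 CPM in wild-type libraries (log2 fold change -0.085, SE 0.11). The pump subunit gene Atp6v1c2 stood at 24.7 to 28.3 CPM in mutant and 25.4 to 34.4 CPM in wild-type libraries (-0.20, SE 0.10), and Atp6v0a4, another subunit, at 5.38 to 9.61 CPM in mutant and 6.83 to 10.4 CPM in wild-type libraries (-0.13, SE 0.21). Markers of strial marginal cells, which lie beside the spindle cells, had 6 of 6 log2 fold changes below 0 (median -0.26, 0 called). They summed to 176 to 199 CPM in mutant libraries and 201 to 250 CPM in wild-type libraries, ranges that did not overlap. The sum of the mucosal markers was lower in the mutant libraries, as given above. The part of the stria, the mucosa or the endolymphatic sac in the Slc26a4 values was not tested. Of the 9 other Slc26 genes in the list, 8 were tested and 0 were called, with 5 above 0 and 3 below 0 (median 0.046). The 3 with the smallest p, Slc26a7 (log2 fold change 0.25, SE 0.23), Slc26a11 (0.13, SE 0.20) and Slc26a1 (0.12, SE 0.22), were all above 0.

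The 7 genes did not vary as 1 group across libraries. Over the 8 libraries, Pearson's r of log2 CPM was 0.87 for Gjb2 with Kcnj16, the highest of the 21 pairs, and 0.40 for Gjb2 with Gjb6. The lowest was -0.67 for Cldn11 with Slc26a4. These values describe 8 libraries that share scaling and tissue makeup, and they carry no test. Outside the 7 genes, those most like each in pattern were taken as the 3 with the highest r among 12417 genes of at least 5 CPM, so that high values follow from the choice. For Gjb2 these were Srpr of the signal recognition particle receptor (r = 0.99), the endoplasmic reticulum lectin Mlec (r = 0.98) and Tceanc2 (r = 0.98). Gjb6 was nearest to the actin-related gene Actr8 (r = 0.97), the kinase gene Pim3 (r = 0.92) and the RNA polymerase I subunit Polr1a (r = 0.92). Cldn11 had as its nearest genes Cyyr1 (r = 0.97), the NAD-consuming enzyme Cd38 (r = 0.96) and the sterol synthesis enzyme Cyp51 (r = 0.96). For Cldn14 they were the spectrin gene Sptbn5 (r = 0.97), the translation regulator Cpeb1 (r = 0.96) and the transcription factor subunit Gtf2a2 (r = 0.96). Slc12a7 was nearest to the chromatin genes Cbx3 (r = 0.98) and Hmgb3 (r = 0.97) and to the mRNA-binding gene Serbp1 (r = 0.98). The genes nearest to Kcnj16 were the mitochondrial enzyme Hadh (r = 0.99), the receptor kinase Erbb2 (r = 0.99) and the water channel Aqp11 (r = 0.98). Those nearest to Slc26a4 were Ly6c1 (r = 0.96), the immunoglobulin heavy chain Ighm (r = 0.96) and the lymphocyte receptor Slamf6 (r = 0.96), whose log2 fold changes were -0.59, -0.97 and -0.87 and did not pass (edgeR adjusted p = 0.907 to 0.924).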

How the data were processed

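The 8 inner ear libraries were prepared with the Lexogen CORALL kit, whose molecules are tagged with identifiers, per the labels' protocols. The submitters' processing notes list FastQC, STAR, HTSeq and the build mm10, giving no version of any. The deposited files hold whole counts per gene symbol, not normalized. For the annotation, the strand setting and the handling of identifiers, nothing is stated: they were not given in the sources used here. If strand was not used, reads of overlapping antisense genes could be counted with a gene.

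Counts were tested with edgeR 4.0.16 in R 4.3.3 (trimmed mean of M-values, default expression filter, robust quasi-likelihood fit, genotype as the only term), with Benjamini-Hochberg adjustment over all 21392 genes and a threshold of 0.05. The procedure was run on simulated counts with larger changes than those of the 7 genes. That run does not show its power for changes as small as theirs. A standard error is the fold change divided by the root of F. For ratios, exact permutation tests (two-sided) were used, for which the smallest p with 4 against 4 libraries is 0.0286. TPM used merged exons of GENCODE M21 (GRCm38), found for 45236 symbols. Log2 CPM for correlations used a prior count of 2. Libraries had 18930841 to 23064578 counts, and the floor of 3 counts covers counting error only, while 95% intervals of fold changes come from the edgeR fit and include the spread between libraries. Every pair of libraries differed by far more than sampling noise (chi-square over degrees of freedom of at least 17.3). Nothing says that replicates are separate animals, so p-values measure only the spread between these libraries. Named genes were the 7 genes, Kcnj10, Foxi1, called genes and the 3 smallest p (mean of at least 1 CPM) of each pathway list, and the 3 genes most like each member. Those outside this rule, apart from comparison values such as next-ranked family members, are said to be chosen later. Of 3 ratios tested, 1 is not reported here, nor are some genes that the rule would name. Members and lists were chosen with earlier results of these data known. Alternatives were RLE and total-count scaling, no filter and a stricter one (1 CPM or more in 4 or more libraries), limma-voom (limma 3.58.1), DESeq2 1.42.0, title form or neighbouring title numbers as a term, genes of all-or-none counts (0 in some libraries, at least 10 in the others) or of haemoglobin, the Y chromosome and Xist left out, and each library left out in turn.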

Additional observations from a re-analysis of the deposited data

Results flagged for a closer look

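Among 14 groups of 4 libraries (7 genes in 2 genotypes), 1 held a library far from the other 3, where about 1 in 20 would be flagged by chance. Kcnj16 stood at 61.9 CPM in wild-type replicate 2, and the next library of that genotype was at 83.0 CPM. That gap was 0.883 of the range of the group, above Dixon's 95% critical value for 4 libraries. Without wild-type replicate 2 the log2 fold change of Kcnj16 was -0.12, against -0.024 with it, and it did not pass in either case (edgeR adjusted p = 0.99995 without it and 0.99999 with it).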

How the results depend on the processing

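No alternative brought any of the 7 genes past the threshold. The 7 log2 fold changes and the ratios kept direction and side of the threshold in most alternatives, and values near 0 changed sign. Cldn14 (-0.0020) was 0.00054 with total-count scaling, 0.0031 without a filter, 0.00048 in DESeq2 and 0.0063 with all-or-none genes left out. Cldn11 (0.23) was 0.47 within libraries of 1 title number and -0.042 within those of 2. With single libraries left out, log2 fold changes lay between -0.17 and 0.10 for Gjb2, -0.12 and 0.0038 for Gjb6, -0.13 and 0.076 for Cldn14, and -0.14 and 0.098 for Kcnj16. The log2 ratios then lay between -0.062 and 0.22 for Gjb2 over Gjb6 and -0.00095 and 0.21 for Kcnj16 over Kcnj10, where 3 against 4 libraries allow no exact p below 0.0571. The number of genes called among all tested was 9, and it was 68 in DESeq2, 16 in limma-voom, 5 with title form as a term and 6 to 14 with single libraries left out, 14 of them without mutant replicate 4. With neighbouring title numbers as a replicate block it was 29. That pairing is assumed. Deviations from the genotype means correlated at 0.13, 0.25, 0.19 and -0.038 in the 4 neighbouring pairs. Wild-type replicates 1, 2 and 3 were each most like their neighbour, but wild-type replicate 4 was most like mutant replicate 1 (0.15). The labels do not settle the pairing, so the numbers were not taken to pair the samples. With the block the standard error was 0.079 for Gjb2 and 0.068 for Kcnj16, against 0.20 and 0.17 without it. It shrank less for Cldn14, Slc12a7 and Slc26a4, and did not shrink for Gjb6 and Cldn11. Under the block no member was called, and the ratios, whose sign-flip test of 4 pairs cannot give an exact p below 0.125, did not pass. Slc26a4 ranged from -0.41 to -0.38 over the 10 alternatives fitted to all 8 libraries, at an adjusted p of at least 0.237. The cause of these differences was not tested. Depth limits Foxi1, Atp6v1b1, Slc4a9 and Rhcg most, at 0 to 8 counts per library.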
